A study of Mus musculus with 32 samples.

Results

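RNA that came down with an antibody to hnRNP E1 was compared with RNA that came down with IgG, in immunoprecipitates of NMuMG cells, a line of normal mouse mammary gland epithelial cells. The comparison takes 8 of the 32 arrays of the series, 4 with the hnRNP E1 antibody and 4 with mouse IgG. The cells were wild type. Each antibody was used on the cytosolic extract of untreated cells (2 arrays) and of cells given TGFβ at 5 ng/ml for 24 h (2 arrays). The other 24 arrays hold monosomal, polysomal and total RNA of NMuMG cells and of E1KD cells, their derivative with hnRNP E1 knocked down, and 4 of them, total RNA of NMuMG cells with and without TGFβ, serve below as a reference for levels. Arrays are called here by the number and letter of their titles. By title the untreated hnRNP E1 arrays are 13A and 14B and the TGFβ-treated ones 14A and 13B, whereas for IgG 15A and 15B are untreated and 16A and 16B treated. The number and the treatment thus cross for hnRNP E1 alone, so that the treatment of those arrays is in doubt. Changes in binding that the paper lists for some genes follow the number, as given below for the BAT genes. The mean over the 4 arrays of an antibody weights treated and untreated cells equally whichever reading holds, and no treatment label entered the test. The labels call the samples of a condition biological replicates and the methods call them independent, but neither speaks of separate cultures, so a p-value covers the spread between these samples, whatever its source. All values come from 1 cell line, and no amount of antibody-bound protein was measured on the arrays.

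hnRNP E1, the product of *Pcbp1*, is a poly(C)-binding protein that contacts RNA through KH domains. It takes part in splicing, mRNA stability and the control of translation, and in NMuMG cells it is known for holding back translation of mRNAs with a TGFβ-activated translation (BAT) element in their 3′ untranslated region. Immunoprecipitation of RNA with an antibody recovers transcripts held by the protein together with RNA that sticks to beads and antibody, and the IgG precipitate shows the second kind alone. A value below is a log2 signal, so that a difference of 1 is a doubling, and every difference is the mean of the 4 hnRNP E1 arrays minus the mean of the 4 IgG arrays unless another is named. RMA, the normalization behind the values, gives all arrays the same distribution, and a larger share of one RNA and smaller shares of the others cannot be told apart, nor can more cells and more RNA per cell.

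The precipitates resembled each other. Pearson's r across probe sets ran from 0.975 to 0.988 between hnRNP E1 and IgG arrays, from 0.985 to 0.996 among hnRNP E1 arrays and from 0.991 to 0.998 among IgG arrays, as a description. Epithelial keratins were abundant, with *Krt8* at 14.59 and *Krt18* at 14.64 in the hnRNP E1 arrays and at 14.38 and 14.48 in the IgG arrays, while *Epcam* lay at 6.03 in both. Of 16 immune cell markers 8 passed the filter on low values, with a median of 5.45 in the hnRNP E1 and 5.41 in the IgG arrays, and none was called. Added control RNAs moved with the antibody. The mean of the 12 poly-A spike-in probe sets was 7.88, 7.70, 7.77 and 7.71 on hnRNP E1 arrays 13A, 13B, 14A and 14B, against 8.33, 8.41, 8.13 and 8.68 on IgG arrays 15A, 15B, 16A and 16B, with no overlap (exact permutation test, 2-sided p = 0.0286, the smallest that 4 against 4 arrays allow, and 0.0762 after adjustment over 8 quality values). The hybridization spike-ins were also lower, by a difference of -0.53 (same p), and the 3′ minus 5′ signal of *Gapdh* was 0.14 with hnRNP E1 against -0.02 with IgG (same p). What part these have in the differences below was not tested. Centring each array on the hybridization spike-ins moved the median gene by 0.53 toward hnRNP E1, and centring on 8 probe sets of *Actb* and *Gapdh* moved it by -0.13. Of these 8 probe sets 7 differed between the antibodies by -0.14 to 0.09, and 1 of *Actb* by 0.98. Centring on the 2 *Actb* probe sets that are no array controls, a choice made after seeing the data, moved the median gene by -0.52. All differences are therefore relative to the median gene, which stood at 0.01 under the deposited scaling, and those smaller than these shifts change sign under 1 of these scalings.

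Of 12600 genes tested, 2187 were higher in the hnRNP E1 precipitate (17.4%) and 1573 were lower (12.5%), by limma with Benjamini-Hochberg adjustment at 0.05. Most differences were small: the genes between the first and the 99th percentile lay between -0.83 and 0.95, and 96 higher and 35 lower genes exceeded 2-fold. In 2326 genes (18.5%) all 4 hnRNP E1 arrays lay above all 4 IgG arrays, and in 1712 (13.6%) all lay below. Of the calls 58.2% were higher under the deposited scaling, 99.5% with centring on the hybridization spike-ins (6340 genes higher and 33 lower) and 31.8% with centring on *Actb* and *Gapdh* (1339 higher and 2875 lower). Calls were rare at low signal: among the 4201 genes of lowest level, up to 7.02, 4.05% were higher and 5.4% lower, against 24.7% and 13.8% of the 4200 genes of middle level and 23.3% and 18.2% of the 4199 genes of highest level.

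**Figure D1:**
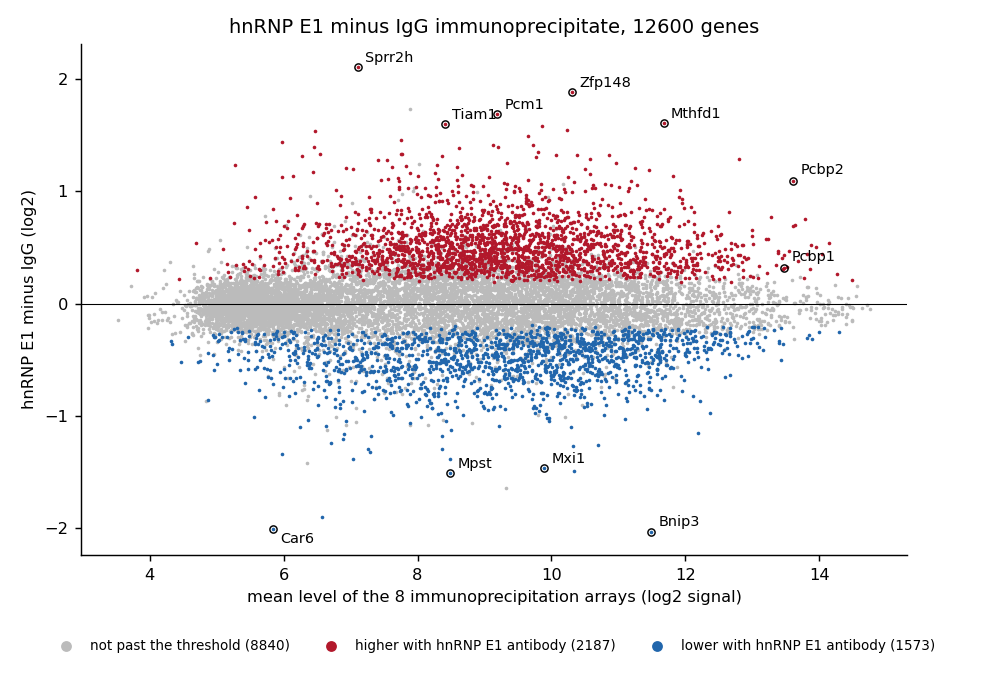
Difference between hnRNP E1 and IgG immunoprecipitates (log2, vertical) against the mean level of the 8 arrays (log2 signal, horizontal), 1 point per gene. Red points (2187) were higher and blue points (1573) lower at an adjusted p under 0.05, and circles mark genes named in the text, from *Sprr2h* at 2.11 to *Bnip3* at -2.04.

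The mRNAs of the poly(C)-binding proteins themselves were among those compared, since hnRNP E1 binds C-rich stretches of mRNA. *Pcbp2*, which encodes the close relative hnRNP E2, measured 14.14, 14.02, 14.28 and 14.16 on hnRNP E1 arrays 13A, 13B, 14A and 14B and 13, 13.11, 12.98 and 13.15 on IgG arrays 15A, 15B, 16A and 16B. Every hnRNP E1 array was thus above every IgG array, and total RNA of NMuMG cells, at 13.15, lay beside IgG. The difference was 1.09 ± 0.08 (SE; 2.13-fold, adjusted p = 7.68e-05), and all 3 of its probe sets were higher, by 1.02 to 1.72. *Pcbp1*, the mRNA of hnRNP E1, measured 13.59, 13.60, 13.69 and 13.64 with hnRNP E1 and 13.35, 13.33, 13.31 and 13.27 with IgG. These groups did not overlap either, but the difference was smaller, 0.32 ± 0.06 (1.24-fold, adjusted p = 0.00593), and it was 0.19, no longer called, when centred on *Actb* plus *Gapdh* but -0.20 when centred on *Actb* alone. *Pcbp4* had a difference of 0.41 (adjusted p = 0.102), *Pcbp3* of -0.06 (adjusted p = 0.814) and *Hnrnpk*, which encodes the related KH protein hnRNP K, of 0.02 (adjusted p = 0.921). By the brightest probe set 2 of the 5 family genes were thus higher and none was lower. Among all genes 17.4% were higher and 12.5% lower, and 5 genes are too few to set against these shares. A second probe set of *Pcbp3* was lower, at -0.37. In untreated E1KD cells total *Pcbp1* RNA was lower than in NMuMG cells by a difference of -2.28 (adjusted p = 9.07e-11), and that of *Pcbp2* differed by 0.03 (adjusted p = 0.911).

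The 15 genes of largest increase ran from 1.39 to 2.11 and had no single function. *Sprr2h*, a small proline-rich protein of the cornified envelope family, measured 8.24, 7.64, 8.55 and 8.24 on the hnRNP E1 arrays 13A, 13B, 14A and 14B and 6.18, 6.35, 5.70 and 6.01 on the IgG arrays 15A, 15B, 16A and 16B, a difference of 2.11 ± 0.20 (adjusted p = 1.84e-04). Total RNA, at 4.84, lay below both. It also lay below 5.52, the median of all values, where a level may be background, and the IgG values lay not far above that limit. *Zfp148*, a zinc finger transcription factor, measured 11.42, 11.17, 11.31 and 11.08 against 9.38, 9.21, 9.37 and 9.49, a difference of 1.88 ± 0.10 (3.69-fold, adjusted p = 2.73e-05). All 6 of its probe sets were higher, by 1.08 to 1.88. *Pcm1*, the scaffold protein of centriolar satellites, measured 10.16, 9.82, 10.11 and 10.06 against 8.55, 8.47, 8.26 and 8.12, a difference of 1.69 ± 0.11 (adjusted p = 5.88e-05), and its 4 probe sets differed by 1.53 to 2.29. The arrays of the antibodies do not overlap in any of these genes because the choice required it, and array 13B was the lowest of the hnRNP E1 arrays for *Sprr2h* and *Pcm1*.

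*Mthfd1*, the cytosolic enzyme that interconverts folate one-carbon units, measured 12.30, 12.28, 12.80 and 12.55 with hnRNP E1 and 11.18, 11.08, 10.75 and 10.49 with IgG, a difference of 1.61 ± 0.17 (adjusted p = 2.90e-04), and all 3 of its probe sets were higher. *Tiam1*, an exchange factor for the GTPase Rac, measured 9.29, 9.14, 9.31 and 9.11 against 7.64, 7.66, 7.54 and 7.62. Its difference, 1.60 ± 0.08 (3.03-fold, adjusted p = 2.65e-05), was large beside a spread of 0.10 (SD, n = 4) among the hnRNP E1 and 0.05 among the IgG arrays. *Rrp12*, a factor in ribosome assembly and export, measured 10.62, 10.46, 10.90 and 10.61 against 9.16, 9.09, 9.09 and 8.91, a difference of 1.59 ± 0.10 (adjusted p = 5.84e-05). The other genes of this set were *Ctdnep1*, a phosphatase of the nuclear envelope (1.55), *Pcgf2*, a Polycomb RING finger protein (1.54), *Mlph*, which links Rab27a vesicles to myosin (1.49), *Mbd6*, a methyl-CpG-binding domain protein (1.46), *Gm20767* (1.44, of uncertain size since its IgG values of 4.97 to 5.40 lay below the filter limit of 5.52), *Ctxn1* (1.42), the tubulin deglutamylase *Agtpbp1* (1.41), the glycine decarboxylase *Gldc* (1.40) and *Zfp385a* (1.39). The IgG values of *Pcgf2* (5.62 to 5.77) and *Zfp385a* (5.50 to 6.12) lay near that limit, so that the sizes of their differences are uncertain too. *Mlph* varied with the array number: it measured 9.91 and 9.71 on 13A and 13B, 11.13 and 10.82 on 14A and 14B, and 8.6 to 9.21 with IgG.

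**Figure D2:**
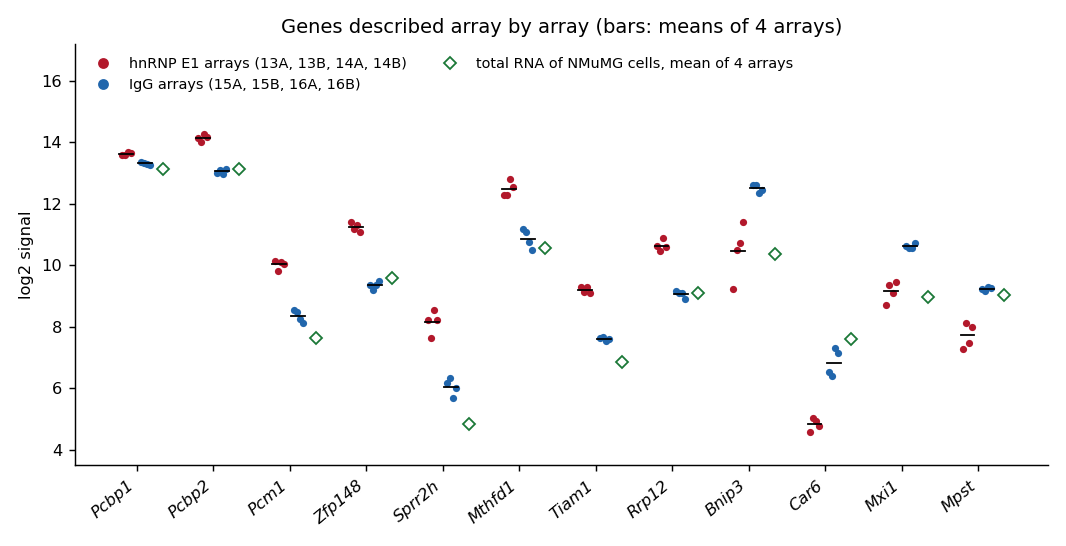
Log2 signal of 12 genes on each of the 4 hnRNP E1 arrays (red), each of the 4 IgG arrays (blue) and as the mean of 4 total RNA arrays (green diamonds), with black bars at the means of an antibody. The red and blue points of a gene do not overlap, which the rule required of the genes chosen for the size of their difference, and for *Bnip3* and *Mxi1* total RNA lies beside the hnRNP E1 arrays rather than the IgG arrays.

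The 15 genes of largest decrease ran from -1.18 to -2.04. *Bnip3*, a mitochondrial BH3 protein induced by low oxygen, measured 9.25, 10.51, 10.73 and 11.40 on hnRNP E1 arrays 13A, 13B, 14A and 14B and 12.62, 12.61, 12.35 and 12.45 on IgG arrays 15A, 15B, 16A and 16B. The hnRNP E1 arrays spread widely, lowest on 13A, but stayed below every IgG array, and the difference was -2.04 ± 0.36 (4.10-fold lower, adjusted p = 0.00304). Total RNA measured 10.37, so that the IgG precipitate stood above total RNA and the hnRNP E1 precipitate beside it. *Mxi1*, an antagonist of Myc, showed the same order with 8.70, 9.38, 9.09 and 9.46 against 10.62, 10.57, 10.58 and 10.74, a difference of -1.47 ± 0.15 (adjusted p = 2.75e-04), and 8.96 in total RNA. *Car6*, a secreted carbonic anhydrase, measured 4.57, 5.03, 4.95 and 4.78 against 6.53, 6.39, 7.30 and 7.14, a difference of -2.01 ± 0.20 (adjusted p = 2.46e-04). Its hnRNP E1 values lay below 5.52, the median of all values and the limit of the filter, where a level may be background, so the size and rank of its difference are uncertain.

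*Mpst*, a sulfurtransferase of cysteine breakdown, measured 7.29, 8.14, 7.49 and 8 with hnRNP E1 and 9.25, 9.16, 9.30 and 9.26 with IgG, a difference of -1.51 ± 0.17 (adjusted p = 3.98e-04). The rest were *Nxt2*, a cofactor of mRNA export (-1.39), the cell cycle inhibitor *Cdkn2a* (-1.38), *Pgap1*, which edits GPI anchors in the endoplasmic reticulum (-1.35, of uncertain size since its hnRNP E1 mean of 5.31 lay below 5.52), *Tmem71* (-1.32), the nuclear receptor *Rora* (-1.30), *Ankrd37*, induced by low oxygen (-1.30), the iron exporter *Slc40a1* (-1.27), *Vapb*, a tether of the endoplasmic reticulum (-1.27), *1110032A03Rik* (-1.21), *Svip*, an inhibitor of protein degradation at the endoplasmic reticulum (-1.18) and *Prrg1* (-1.18). Probe sets of a gene did not always move together. Of the 8 probe sets of *Rora* 5 were lower, and those of *Vapb* ran from -1.27 to 0.09. Among 5612 genes with several probe sets, 409 had all of them higher, 324 had all lower and 107 had probe sets called in opposite directions.

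Whether mRNAs already described as hnRNP E1 targets were enriched was asked of 11 genes, of which 6 passed the filter on low values. Of these 2 were higher (33.3%) and none was lower, beside 17.4% and 12.5% of all genes. With quantile normalization or median centring 1 was higher, and with centring on *Actb* and *Gapdh* 1 was higher and 1 lower. So few genes cannot set the share of targets apart from that of all genes. *Dab2*, an endocytic adaptor whose mRNA carries a BAT element, measured 6.14, 6.24, 5.11 and 5.28 on hnRNP E1 arrays 13A, 13B, 14A and 14B and 5.72, 5.36, 6.09 and 6.67 on IgG arrays 15A, 15B, 16A and 16B. The ranges overlapped throughout, near the median of all values, and the difference was -0.27 ± 0.32 (adjusted p = 0.595). *Fam3c*, which encodes the cytokine ILEI and carries the same element, measured 10.59, 10.87, 10.75 and 10.72 against 10.37, 10.32, 10.88 and 10.78, a difference of 0.15 ± 0.14 (adjusted p = 0.477). Its values on the 4 hnRNP E1 arrays lay within the range of the IgG arrays. A second probe set of *Fam3c* had the opposite sign, at -0.27 (adjusted p = 0.241), and was not called either.

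*Myc*, the transcription factor, measured 11.09, 11.03, 11.11 and 11.04 with hnRNP E1 and 10.42, 10.45, 10.69 and 10.83 with IgG, without overlap, a difference of 0.47 ± 0.10 (adjusted p = 0.00692). With centring on *Actb* alone it was -0.05. *Ptp4a3*, a phosphatase known as PRL-3, measured 9.60, 9.51, 9.28 and 8.97 against 8.67, 8.62, 9.02 and 9.08, a difference of 0.49 ± 0.16 (adjusted p = 0.0414) that overlapped and lost its call when array 13A, 13B, 14A, 15A or 15B was left out. *Cdkn1a* (0.04) and *Ppp1r10* (-0.30) were not called. *Trp63*, *Alox15*, *Col1a1*, *Th* and *Hba-a1* did not pass the filter.

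The study's own 36 BAT genes were chosen in part on these arrays, so that they are not independent evidence of a direction. The choice asked for a lower hnRNP E1 signal after TGFβ and for an IgG signal that was not lower. The fall in hnRNP E1 binding that the paper lists for *Zeb2*, *Jak2* and *Pip4k2a* is found from arrays 13A and 13B to 14A and 14B. By title the untreated and treated hnRNP E1 arrays overlap in each of these genes. Against IgG 2 of the 36 were higher (5.56%) and 11 lower (30.6%), beside 17.4% and 12.5% of all genes, and their median was -0.21 against 0.01. The median ran from -0.33 without array 13A to -0.10 without 14A. With centring on the spike-ins 13 were higher and none lower, with centring on *Actb* alone 2 and 24, and with 4 groups by array number 7 and 18. *Baz1a*, a chromatin remodelling subunit, measured 11.56, 11.24, 10.93 and 10.90 on hnRNP E1 arrays 13A, 13B, 14A and 14B and 10.09, 10.07, 10.11 and 10.25 on IgG arrays 15A, 15B, 16A and 16B, a difference of 1.03 ± 0.14 (adjusted p = 8.26e-04) with no overlap. *Zeb2*, a repressor of E-cadherin in EMT, measured 8.98, 9.11, 7.80 and 7.78 against 6.56, 6.41, 7.66 and 7.70, a difference of 1.34 ± 0.40 (adjusted p = 0.0326). Arrays 14A and 14B lay just above IgG arrays 16A and 16B, and the call was lost without 13A, 13B, 15A or 15B. Leaving out 1 array gave 1 to 3 higher and 9 to 13 lower BAT genes.

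*Prxl2a*, a peroxiredoxin-like protein, measured 10.25, 10.61, 9.89 and 10.39 with hnRNP E1 and 11.06, 11.08, 11.36 and 11.60 with IgG, the lowest of the 36 at -0.99 ± 0.17 (adjusted p = 0.00231). *Eif5a2*, a translation elongation factor, measured 8.65, 8.95, 8.17 and 8.59 against 9.40, 9.38, 9.40 and 9.38, a difference of -0.80 ± 0.14 (adjusted p = 0.00280). *Egfr*, the EGF receptor, measured 8.33, 8.61, 7.75 and 8.33 against 8.96, 9.05, 8.83 and 8.72, a difference of -0.64 ± 0.17 (adjusted p = 0.0178) that lost its call without 15B. In these 3 genes each hnRNP E1 array was below each IgG array. Apart from the arrays, the paper reports that *Egfr* and *Eif5a2* BAT elements pulled down hnRNP E1 from extracts of untreated cells, with binding lost after TGFβ. By RT-PCR of separate precipitates it found its selected targets with hnRNP E1 mainly in untreated cells. The differences given here pool untreated and treated cells. The other lower BAT genes were *Twsg1*, an extracellular modulator of BMP signalling (-0.88), *Ubxn2a* (-0.72), *Zfp266* (-0.72), the serine protease *Dpp8* (-0.69), the protein kinase A inhibitor *Pkia* (-0.68), the G protein subunit *Gna13* (-0.54), *Tmem65* (-0.53) and the RNA-binding protein *Rbms1* (-0.39). *Gna13* lost its call without 14A, 14B or any 1 of the IgG arrays and *Dpp8* without 16B, and with centring on the hybridization spike-ins *Tmem65* was 0.00 and *Rbms1* 0.13. The 23 BAT genes that were not called ran from *Zfp267* at -0.50 to *Dusp7* at 0.56. *Inhba*, the activin A subunit, had a difference of 0.35 (adjusted p = 0.0771) and *Msn*, the actin linker moesin, of 0.18 (adjusted p = 0.530).

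**Figure D3:**
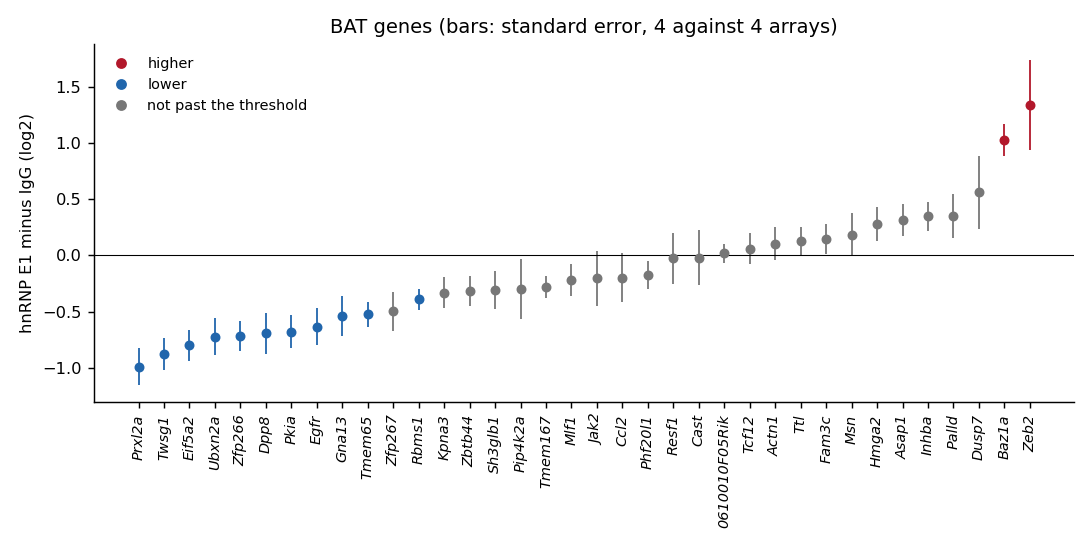
Difference between hnRNP E1 and IgG immunoprecipitates (log2) of the 36 BAT genes, each with its standard error (4 against 4 arrays), in order of size. Of these 11 are lower (blue), from *Prxl2a* at -0.99, and 2 higher (red), *Zeb2* and *Baz1a*, under the deposited scaling, and 23 are not past the threshold (grey).

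Gene lists were described by how many of their tested members passed the threshold, beside 17.4% higher and 12.5% lower among all genes, and their medians beside 0.01. The directions of list medians given here are those of the deposited scaling, of quantile normalization and of median centring. With centring on *Actb* and *Gapdh* they keep their sign too. With centring on the spike-ins all of them are above 0, and with centring on *Actb* alone all are below 0.

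The lists with the largest shares of higher genes encode the machinery that makes ribosomes and charges tRNAs. These lists, and one of one-carbon metabolism, were put together after leading members had been seen among the higher genes. Of 55 ribosome biogenesis factors 47 were higher (85.5%) and none was lower, with a median of 0.49. *Heatr1*, a factor of the small subunit processome, was an example, at 10.75, 10.63, 10.76 and 10.64 on arrays 13A, 13B, 14A and 14B and 9.75, 9.71, 9.60 and 9.63 on arrays 15A, 15B, 16A and 16B (1.02 ± 0.07, adjusted p = 5.88e-05). *Nol9* (0.96) and *Nol8* (0.89) followed, and the abundant nucleolar protein *Npm1* had a difference of -0.04 (adjusted p = 0.792). Of 19 cytosolic aminoacyl-tRNA synthetases 16 were higher, led by the alanine enzyme *Aars* at 1.21 and the leucine enzyme *Lars* at 1.14, with *Yars* at 0.97 and *Tars* at 0.78, and 9 were higher with centring on *Actb* and *Gapdh*. The glutamine enzyme *Qars* alone was lower, with 10.99, 10.84, 10.65 and 10.73 against 11.38, 11.28, 11.37 and 11.54 (-0.59 ± 0.09, adjusted p = 0.00173). Of 16 genes of folate one-carbon metabolism and purine synthesis 10 were higher and none lower, led by *Mthfd1*, *Gldc*, the mitochondrial *Mthfd1l* (1.29) and *Mthfd2* (1.06). The structural proteins of the ribosome did not share this: of 44 cytosolic ribosomal protein genes none was higher and 5 were lower, with a median of -0.10, and 25 were lower with centring on *Actb* and *Gapdh*. *Rps6* (-0.43), *Rpl14* (-0.42), *Rps27l* (-0.34), *Rps24* (-0.26) and *Rplp0* (-0.26) were lower, and with centring on the spike-ins *Rps6* was 0.10 and *Rpl14* 0.11. *Rplp0* lost its call when array 14A, 15A or 16A was left out.

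Chaperones and DNA replication genes were next. Of 38 chaperone and heat shock genes 19 were higher (50%) and 4 lower, with a median of 0.24, and 11 were higher with centring on *Actb* and *Gapdh*. The inducible *Hspa1b* (1.10), the ribosome-associated *Hspa14* (1.08), the co-chaperone *Bag3* (0.93) and *Hsph1*, an exchange factor for HSP70 (0.85) led them. *Hspa14* measured 10.82, 10.80, 11 and 10.88 with hnRNP E1 and 9.96, 9.87, 9.66 and 9.69 with IgG. Of 51 DNA replication genes 23 were higher (45.1%) and 2 lower, with a median of 0.28, including the polymerase δ subunits *Pold3* (0.93) and *Pold2* (0.73), the helicase cofactor *Cdc45* (0.75) and the ligase *Lig1* (0.74). *Pold3* measured 10.19, 9.98, 10.18 and 10.07 against 9.20, 9.24, 9.26 and 9.02, so that the gap between the antibodies exceeded the range within either.

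Genes of nuclear regulation and RNA handling moved in both directions. Of 90 transcription and chromatin regulators 34 were higher (37.8%) and 11 lower, from the DNA demethylase *Tet3* (1.32) and the coactivator *Ncoa3* (1.05) to the repressor *Klf3* (-0.91). Of 70 hnRNPs and splicing factors 24 were higher and 7 lower, with *Prpf3* of the U4/U6 particle at 0.82, *Sf3b3* of the U2 particle at 0.78 and *Hnrnpul2* at -0.79. Of 61 genes of mRNA decay and mRNA binding 20 were higher and 8 lower. The poly(A) ribonuclease *Parn* measured 9.90, 9.64, 10.25 and 10.04 on arrays 13A, 13B, 14A and 14B and 8.76, 8.81, 8.66 and 8.6 on the IgG arrays (1.25 ± 0.12, adjusted p = 2.23e-04), and the deadenylase *Cnot7* was lower (-0.70). The decapping helicase *Ddx6* was at -0.76 by its brightest probe set and at 0.33 as the mean over its probe sets, so that it has no settled direction. Of 40 proteasome subunits 13 were higher and 3 lower (none lower without array 15B, and 1 without 13A, 14A, 15A or 16A), none by more than *Psmd11* (0.49), which was at -0.03 with centring on *Actb* alone.

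**Figure D4:**
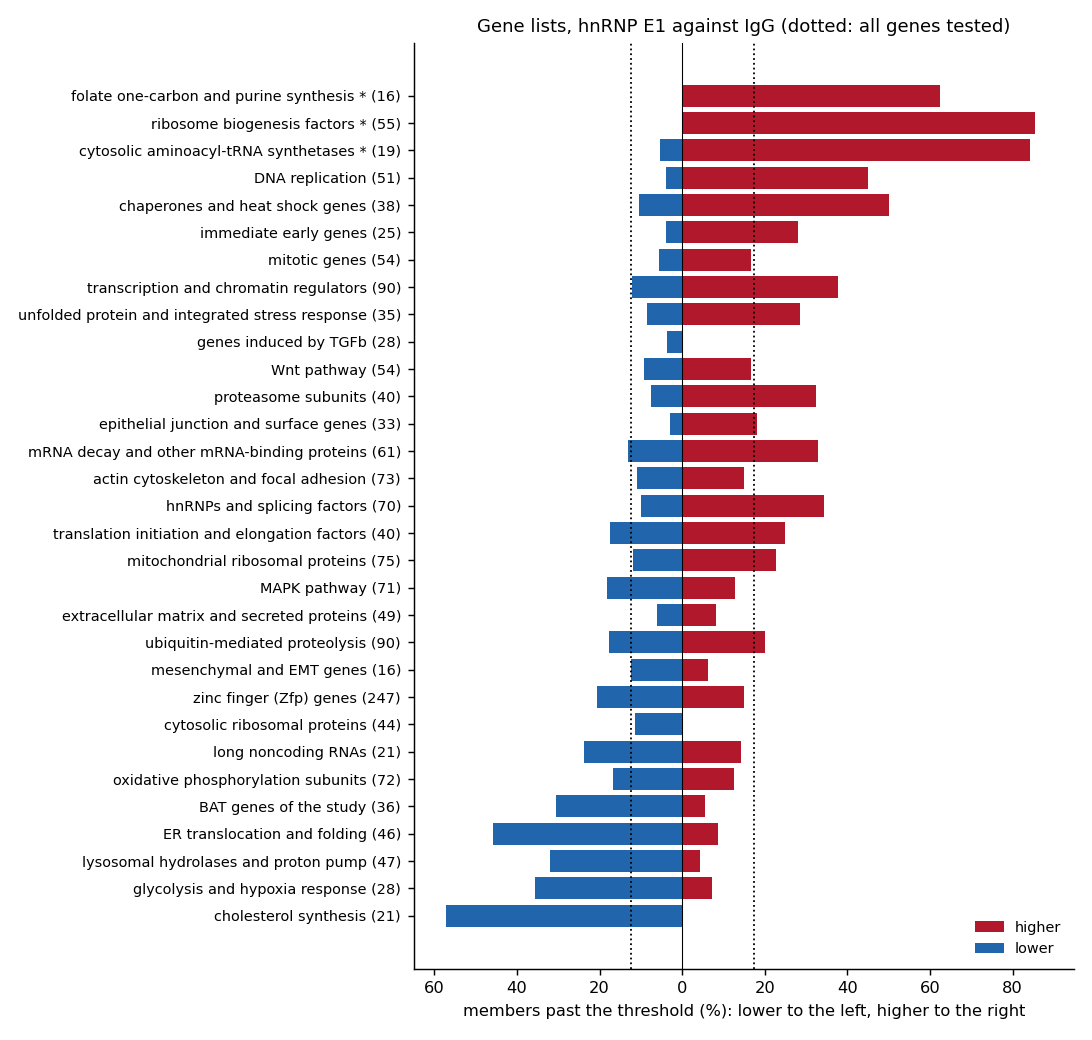
Percent of tested members of each gene list that were higher (red, to the right) or lower (blue, to the left) in the hnRNP E1 than in the IgG precipitate, under the deposited scaling, in order of the list's median difference, with the number tested in brackets. Dotted lines mark all genes (17.4% and 12.5%), and an asterisk marks lists put together after leading members had been seen. Ribosome biogenesis factors reach 85.5% to the right and cholesterol synthesis genes 57.1% to the left.

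Lower genes were frequent among cholesterol synthesis, the endoplasmic reticulum, lysosomes and the response to low oxygen. Of 21 genes of cholesterol synthesis none was higher and 12 were lower (57.1%), with a median of -0.34, and 7 were lower when IgG array 15A or 15B was left out. The lanosterol demethylase *Cyp51* measured 7.50, 8.06, 7.68 and 8.22 on hnRNP E1 arrays 13A, 13B, 14A and 14B and 8.97, 9.02, 8.70 and 8.66 on IgG arrays 15A, 15B, 16A and 16B (-0.97 ± 0.16, adjusted p = 0.00212). *Insig1*, the sterol sensor (-0.92), and the enzymes *Tm7sf2* (-0.86) and *Msmo1* (-0.63) also fell. Of 46 genes of translocation and folding in the endoplasmic reticulum 21 were lower (45.7%) and 4 higher. *Tram1*, of the translocation channel, measured 9.23, 9.78, 9.24 and 9.44 against 10.33, 10.27, 10.48 and 10.56 (-0.99 ± 0.13, adjusted p = 6.97e-04), and the lectin chaperone *Canx* and the translocon-associated *Ssr4* and *Ssr3* were lower by differences of -0.87, -0.86 and -0.81. The higher genes, named after their values were seen, were *Dad1* of the oligosaccharyltransferase (0.77), the lumenal chaperones *Calr* (0.48) and *Hyou1* (0.63), and *Srp68* of the signal recognition particle (0.54), and *Calr* was -0.04 with centring on *Actb* alone. Of 47 lysosomal genes 15 were lower (31.9%) and 2 higher, led by the sterol carrier *Npc2* (-0.87) and the membrane protein *Lamp2* (-0.80), and 9 were lower without array 15A.

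Of 28 genes of glycolysis and the hypoxia response 10 were lower (35.7%) and 2 higher, with a median of -0.29. Besides *Bnip3* and *Ankrd37* these included the collagen hydroxylase *P4ha1* (-0.93) and *Egln3*, an oxygen-sensing hydroxylase. *Egln3* measured 8.18 and 9.02 on 13A and 13B, 10.44 and 10.72 on 14A and 14B, and 11.39, 11.43, 10.81 and 10.71 on IgG arrays 15A, 15B, 16A and 16B, a difference of -1.50 ± 0.50 (adjusted p = 0.0493). The groups overlapped at 14B and 16B, and the call was lost when any one of 13A, 13B, 15A, 15B, 16A and 16B was left out. *Bnip3* and *Egln3* were lowest on array 13A among the 8.

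In the other lists calls were fewer or ran both ways. Of 28 genes induced by TGFβ none was higher and 1 lower, and of 16 mesenchymal and EMT genes 1, *Zeb2*, was higher and 2 lower. The test on antibody alone leaves any effect of treatment in the spread between arrays, which can cost calls in genes that respond to it. With 4 groups by array number 9 genes induced by TGFβ were higher and 5 lower, and 3 mesenchymal and EMT genes were higher and 6 lower. Of 54 mitotic genes 9 were higher (16.7%), led by the spindle protein *Hmmr* (1.20), and 3 lower, with none lower when array 13A, 15A or 15B was left out and 1 lower without 14A, 13B or 16B. With 4 groups by array number 18 mitotic genes were higher and 6 lower. Of 71 MAPK pathway genes 9 were higher, with the Ras GTPase-activating protein *Nf1* at 1.16 and the AP-1 member *Jund* at 0.94, and 13 were lower, with *Map3k2* at -0.96. Of 247 zinc finger genes named Zfp 37 were higher and 51 lower, and 32 were lower without array 15B and 33 without 15A. Of 35 genes of the unfolded protein and integrated stress response 10 were higher and 3 lower. Their leading members went opposite ways: *Shmt2* (1.03) and *Mthfd2*, enzymes of mitochondrial one-carbon metabolism, were higher, and *Dnajb9*, an endoplasmic reticulum co-chaperone, was lower (-0.97). *Chac1*, which degrades glutathione, measured 10.23, 10.28, 10.85 and 10.53 against 8.46, 8.25, 9.86 and 9.92 (1.35 ± 0.37, adjusted p = 0.0233), and its call was lost without 14A, 15A or 15B. Of 21 long noncoding RNAs 3 were higher, with *Neat1* at 0.56, and 5 lower, with *Oip5os1* at -0.85.

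Total RNA of the same cells was set beside both precipitates to show where each stood. It is unfractionated RNA and not the cytosolic extract from which the precipitates came. The hnRNP E1 precipitate was higher than total RNA in 42.2% of genes and lower in 18.3%, and the IgG precipitate in 39.8% and 16.4%. These comparisons share the total RNA arrays and are given side by side. The higher and lower genes were chosen by the difference between the precipitates on these same arrays. The gap between their medians below therefore follows from that choice, and a wider gap leaves more room for total RNA to lie between. Of the 2187 genes higher with hnRNP E1, total RNA lay below both precipitates in 1512 (69.1%) and between them in 439 (20.1%), beside 61.7% and 16.2% of all genes. Of the 1573 lower genes, total RNA lay below both in 507 (32.2%), between them in 582 (37%) and above both in 484 (30.8%), beside 61.7%, 16.2% and 22.2% of all genes. The median of the lower genes was -0.21 for hnRNP E1 minus total RNA and 0.26 for IgG minus total RNA, and that of the higher genes was 0.70 and 0.20, beside 0.18 and 0.18 over all genes.

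Several lists stood below total RNA in both precipitates. The median for translocation and folding genes was -2.22 for hnRNP E1 and -1.76 for IgG against total RNA, for lysosomal genes -2.32 and -2.03, for the unfolded protein and integrated stress response -2.19 and -2.12, and for extracellular matrix and secreted proteins -1.42 and -1.34, beside 0.18 and 0.18 over all genes. Epithelial junction and surface genes, at 0.19 and 0.12, were not among them. *Canx* measured 13.11 in total RNA, 11.56 with IgG and 10.69 with hnRNP E1, and *Cdh1*, which encodes E-cadherin, 12.44, 9.93 and 9.69. Cholesterol genes had medians of -0.82 and -0.18. Ribosome biogenesis factors stood at 0.57 for hnRNP E1 and 0.05 for IgG, aminoacyl-tRNA synthetases at 0.19 and -0.45, and DNA replication genes at 1.02 and 0.78. *Bnip3*, induced by low oxygen, differed from total RNA by 2.14 in the IgG and by 0.11 in the hnRNP E1 precipitate, *Egln3* by 2.03 and 0.53, and *Ankrd37* by 1.98 and 0.68.

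**Figure D5:**
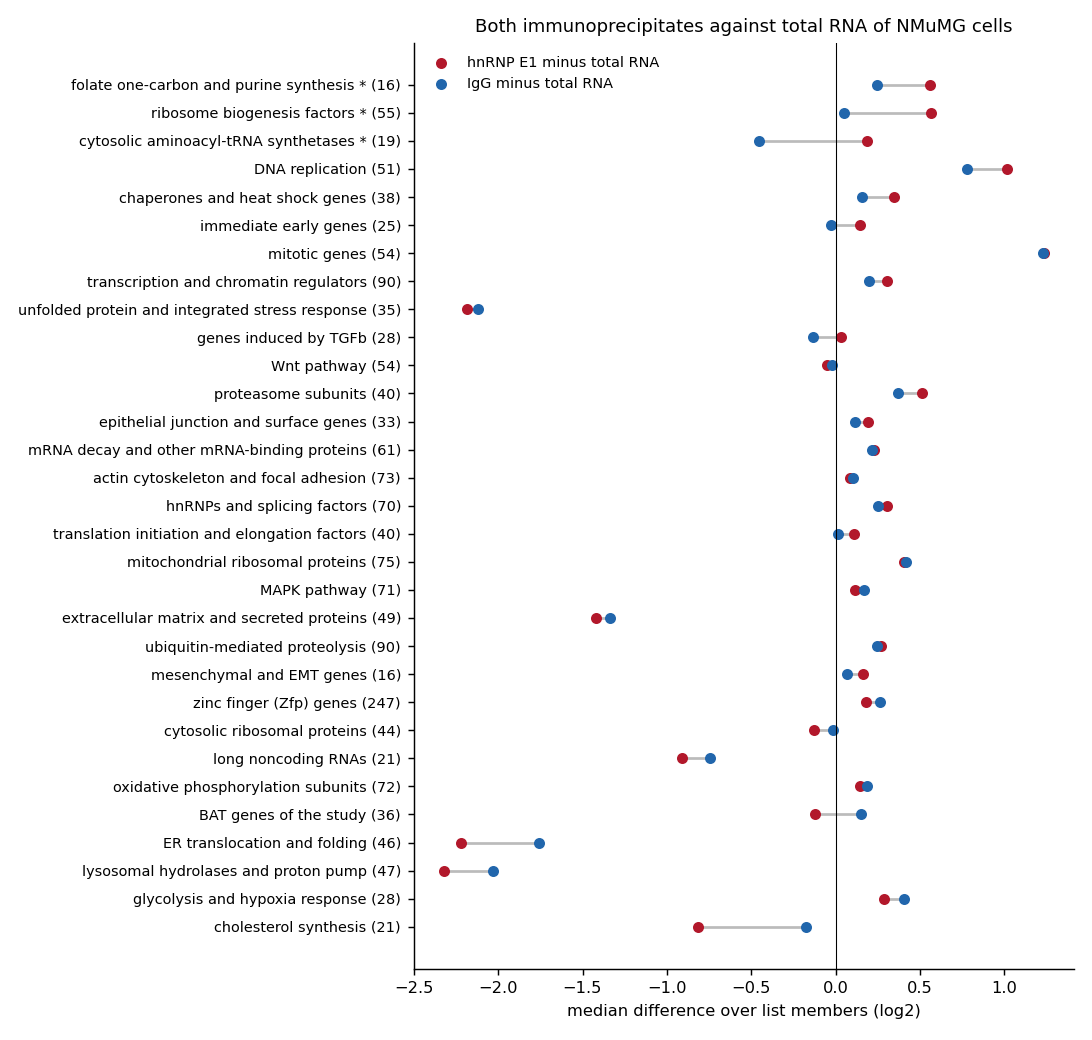
Median difference over list members (log2) between each precipitate and total RNA of NMuMG cells, hnRNP E1 in red and IgG in blue, in the same order of lists, with an asterisk for lists put together after leading members had been seen. Endoplasmic reticulum and lysosomal genes lie near or below -1.76 in both precipitates, while the median over ribosome biogenesis factors is 0.57 with hnRNP E1 and 0.05 with IgG.

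Arrays outside the antibody comparison gave 2 other readouts for these genes. In total RNA of untreated E1KD cells 17.8% of all genes were higher than in untreated NMuMG cells and 15.1% lower. Among genes higher with the hnRNP E1 antibody 16.6% were higher and 19% lower after knockdown, and among genes lower with the antibody 22.8% were higher and 16.5% lower. The median knockdown difference was -0.04 for the first, 0.07 for the second and -0.02 for all genes. Single genes went their own way: *Pcm1* and *Zeb2* were higher in E1KD cells (1.43 and 1.66), *Zfp148* differed by 0.01 (adjusted p = 0.977), and *Prxl2a* was lower (-3.41), as was *Cyp51* (-2.08). The median polysomal minus monosomal difference in untreated NMuMG cells was -0.46 for genes higher with the antibody, -0.71 for genes lower and -0.17 for all, and in untreated E1KD cells it was -0.21, 0.18 and -0.05.

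Because hnRNP E1 binds runs of C, the 50 genomic bases that follow each gene's start were read from RefSeq (GRCm38.p6), which held a start for 10177 of the 12600 genes. C made up 29.8% of these bases in genes higher with hnRNP E1, 29.4% in genes lower and 29.6% in all. Where a gene had several starts, its value was the mean over them. The run CCCC, sought on the transcript strand, followed 18.6%, 20.2% and 19.2% of the starts of a gene on average, and CCCTCCC 1.64%, 1.84% and 1.44%. A run of 4 G, as a comparison, followed 29.6%, 30.2% and 28.9%. A start was held for 1821 of the 2187 higher and 1302 of the 1573 lower genes. The rest of each transcript, 3′ untranslated regions included, was not analysed here.

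The spread among arrays of one antibody was of the order of the smaller differences. The median SD over genes was 0.15 among the 4 hnRNP E1 arrays and 0.11 among the 4 IgG arrays, and it was larger with hnRNP E1 in 66.9% of genes. Arrays 13A and 13B together differed from 14A and 14B by a median of 0.16 in absolute value, more than the 0.08 between the arrays grouped by the treatment of their titles. For IgG arrays 15 and 16 that median was 0.12, and for hnRNP E1 against IgG it was 0.18.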

How the data were processed

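RNA of 8 immunoprecipitates, 4 with hnRNP E1 antibody and 4 with IgG, was measured on Affymetrix mouse whole-genome arrays. The authors deposited 1 table of log2 values, made in Affymetrix Expression Console by RMA (background correction, quantile normalization over arrays and probe summary); versions are not given in the sources used here, and MAS5 calls, which the processing notes also name, were not used here. RMA fixes the distribution of every array and so hides any change in the amount of RNA. Of 45101 probe sets, 64 controls were set aside, and 25432 with a value above 5.52, the median of all values, on at least 8 of the 32 arrays were kept. Of these 22090 had 1 gene symbol, 621 several and 2721 none, by the platform annotation updated through RefSeq (GRCm38.p6). A gene stands by its probe set of highest mean over the 32 arrays, which gave 12600 genes. Centring on *Actb* and *Gapdh* took all 8 of their probe sets, array controls included.

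The antibodies were compared with limma 3.58.1 (R 4.3.3, lmFit and eBayes, 2-sided, 6 residual degrees of freedom before moderation) on antibody alone, with Benjamini-Hochberg adjustment over the probe sets kept and a threshold of 0.05. Total RNA was compared in a fit of 12 arrays, and knockdown and polysomes in a fit of the other 24. Quality values were tested by exact permutation, and gene lists by counts and medians without a set test. Named were the 15 genes of largest increase and of largest decrease that were called without overlap, all genes of the poly(C), target and BAT lists, and up to 4 called members of largest difference in every other list. Members and lists were chosen with earlier results of these data known, and 3 lists (ribosome biogenesis, aminoacyl-tRNA synthetases, one-carbon metabolism) after leading values were seen. The test was checked on simulated data. Whether the title letters A and B pair the samples was not settled. Deviations of same-lettered arrays correlated at -0.59 between the hnRNP E1 groups as titled and between -0.05 and 0.08 elsewhere. Array number and treatment cross for hnRNP E1, so deviations in its groups also carry the difference between array numbers. Correlations with these groups therefore cannot test pairing by letter. Between the IgG groups, where number and treatment do not cross, the correlation was 0.08. The number of arrays limits the precision.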

Additional observations from a re-analysis of the deposited data

Results flagged for a closer look

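Among 326 groups of 4 arrays, each of 1 antibody and 1 gene or quality value, 8 held an array far from the other 3 by Dixon's test, which chance does in about 1 group in 20. hnRNP E1 array 14B stood apart for *Nxt2* (8.27), *Klf3* (10.69) and *Neat1* (10.64). Array 14A stood apart for *Cdkn1a* (11.38). IgG array 16A stood apart for *Palld* (10.29), *Eif4g3* (9.26) and *Dad1* (10.37), and IgG array 16B for *Hyou1* (8.2).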

How the results depend on the processing

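Counts of genes higher and lower in the hnRNP E1 precipitate were 2187 and 1573 as reported. They became 6340 and 33 with centring on the hybridization spike-ins, 1339 and 2875 on *Actb* plus *Gapdh*, then 109 and 7358 with centring on the 2 probe sets of *Actb* that are no array controls, which was added after seeing the data. With centring on *Actb* and *Gapdh* 13 hnRNPs and splicing factors (24 as reported), 21 transcription and chromatin regulators (34) and 7 proteasome subunits (13) were higher, and 26 lysosomal genes (15) and 16 hypoxia genes (10) lower. With 4 groups by array number 2507 were lower (3060 higher). Leaving out 1 array gave 1766 to 2061 higher and 1115 to 1562 lower. With the title letter as a replicate block they were 2015 and 1361, of which 2008 and 1352 had been called before. *Ptp4a3*, *Gna13*, *Zeb2*, *Egln3* and *Krt8* then lost their call, but whether the letters pair the samples was not settled. *Krt8* also lost its call without any 1 of the 8 arrays. The fit of only the 4 knockdown arrays gave 2911 genes lower in place of 1897. Genes called under either scaling of a pair are given here, and others that were called under neither (*Fam3c*, *Pcbp4*, *Inhba* and *Msn* on *Actb* alone, *Dab2*, *Ppp1r10* and *Zfp267* on the spike-ins, for example) also turned. With centring on *Actb* alone the sign turned for *Pcbp1* (-0.2013), *Hnrnpk* (-0.5013), *Cdkn1a* (-0.4762), *Ptp4a3* (-0.0237), *Myc* (-0.0463), *0610010F05Rik* (-0.4987), *Psmd11* (-0.0312), *Psmd3* (-0.0412), *Krt8* (-0.3038), *Calr* (-0.0413), *Epcam* (-0.5112) and *Actb* (-0.4638). With centring on the spike-ins it turned for *Rbms1* (0.1347), *Tmem65* (0.0022), *Rps6* (0.1022), *Rpl14* (0.1122), *Rps27l* (0.1922), *Rps24* (0.2697) and *Rplp0* (0.2722), and as a mean over probe sets for *Ddx6* (0.3283). The cause was not tested. Few calls fell at low signal.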
